A study of Mus musculus with 6 samples.

Results

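MHC class II molecules are heterodimers of an alpha and a beta chain that display peptides from endosomes to CD4+ T cells, and B cells depend on them to obtain T cell help in the germinal center. Newly made dimers are held by the invariant chain Cd74, whose last fragment, CLIP, is removed by the peptide editor H2-DM, and H2-O, an inhibitor of H2-DM found mainly in B cells, restrains that exchange. Transcription of these genes is coordinated by the class II transactivator Ciita, which is recruited to promoters that carry conserved X and Y boxes.

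The 10 genes of this machinery were chosen by symbol from the gene count table: the class II chains H2-Aa, H2-Ab1, H2-Eb1 and H2-Eb2, the H2-DM chains H2-DMa, H2-DMb1 and H2-DMb2, the H2-O chains H2-Oa and H2-Ob, and Cd74. These 10 are part of 24499 genes in the table, and all 10 were among the 13296 genes that passed the filter on low counts. The libraries came from induced germinal center B cells (iGCBs), obtained by culturing naïve splenic B cells on 40LB feeders, a BALB/c 3T3 fibroblast line that expresses CD40L and BAFF and was irradiated at 120 Gy, with IL-4 at 1 ng/ml. YFP+ cells, in which Cre had acted on the reporter, were sorted on day 3 by the sample titles. There were 3 libraries from cKO mice, which carry Eif3e fl/fl with Cγ1-Cre and the reporter Rosa26-YFP LSL, and 3 from control mice. All mice were on C57BL/6J. The study states 3 biological replicates, and whether each library came from its own mouse is not given in the sources used here. The labels give the control genotype only as control. For the mice it examined in vivo, the study names the control as Cγ1-Cre with Rosa26-YFP LSL. The control libraries here were sorted as YFP+ too. Resting B cells do not transcribe the γ1 gene that drives this Cre, and the YFP sort keeps cells in which it was active. Ages are not given in the sources used here.

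The 6 libraries held 39079582 to 45504570 counts each, and the floor of 3 counts lay at 0.0661 to 0.0763 CPM (counts scaled to a common library size), which covers counting error only. Eif3e, the deleted gene, had 7868, 6738 and 6433 counts in cKO 1, 2 and 3 and 19147, 15750 and 16159 counts in control 1, 2 and 3. Its cKO mean was 39% of the control mean (log2 fold change -1.36, SE 0.0657, adjusted p = 6.71e-07 by the edgeR quasi-likelihood fit used for all genes). Xist was present in cKO 2 and in control 1 and 2 and at 0 to 16 counts in the other 3 libraries, so the libraries of the 2 groups differ in Xist makeup. The B cell receptor subunit Cd79a had 32878 to 43641 counts across the 6 libraries.

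Of the 10 genes, 9 lie within 249.1 kb of chromosome 17 (GRCm38, chr17:34092340-34341412), in the order H2-Oa, H2-DMa, H2-DMb2, H2-DMb1, H2-Ob, H2-Ab1, H2-Aa, H2-Eb1 and H2-Eb2. RefSeq promoter windows, 250 bases before to 50 bases after the start on GRCm38.p6, were found for 8 of the 10 genes, in 9 windows. Stretches of 63 bases are shown for the 7 genes with a Y box close to the start, because Ciita acts through the X and Y boxes. They run 5′ to 3′ on the strand of the gene, with the Y box letters GATTGG in capitals and, where present, a match to a loose X box pattern in capitals as well.

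H2-Oa, chr17:34092292-34092354, + strand: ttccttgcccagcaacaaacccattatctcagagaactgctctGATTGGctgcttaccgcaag
H2-DMb2, chr17:34145115-34145177, + strand: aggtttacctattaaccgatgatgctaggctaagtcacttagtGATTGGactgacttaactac
H2-DMb1, chr17:34153086-34153148, + strand: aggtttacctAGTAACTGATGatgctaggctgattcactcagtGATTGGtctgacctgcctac
H2-Ob, chr17:34238804-34238866, + strand: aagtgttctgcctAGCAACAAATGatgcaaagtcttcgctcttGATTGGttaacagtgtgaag
H2-Aa, chr17:34287853-34287915, - strand: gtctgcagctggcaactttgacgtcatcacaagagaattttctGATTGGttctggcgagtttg
H2-Eb1, chr17:34305764-34305826, + strand: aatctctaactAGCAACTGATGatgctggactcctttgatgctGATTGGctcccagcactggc
H2-Eb2, chr17:34325531-34325593, + strand: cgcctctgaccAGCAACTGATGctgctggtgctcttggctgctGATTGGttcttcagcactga

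In H2-DMb1, H2-Ob, H2-Eb1 and H2-Eb2 the X box match began 33, 30, 32 and 32 bases before the Y box. The Y box letters GATTGG were found in 8 of the 9 windows and, over both strands, in 16.1% of all 32851 windows. One of 2 windows of H2-DMa held them 199 bases before its start and the other did not hold them. The loose X box pattern was in 5 of the 9 windows and in 3.09% of all windows. These were 2 of 8 overlapping patterns tried after the members' windows had been read. The fifth X box match was in H2-Oa, 141 bases before its start and outside the stretch shown. The other patterns were the Y box as ATTGG, in 8 of the 9 windows and 37.4% of all windows, and as CTGATTGG, in 4 of the 9 and 4.1% of all. The 4 stricter X box patterns were in 1, 1, 4 and 2 of the 9 windows and in 0.0213%, 0.0609%, 0.968% and 0.07% of all windows. A match describes letters in a window and is not evidence of a bound site.

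All 10 genes were lower in cKO iGCBs than in control iGCBs at an adjusted p under 0.05 and none was higher. Over all tested genes 24.5% were lower and 24.1% higher by the same rule. The median log2 fold change of the 10 genes was -0.606, against -0.00402 over all tested genes. In all 10 genes every cKO library lay below every control library, as it did for 29.5% of all tested genes, and 58.7% did not overlap in either direction. Of the 10, 6 genes, namely H2-Aa, H2-Ab1, H2-Eb2, H2-Oa, H2-Ob and Cd74, were also lower by more than 1.5-fold, against 10.6% of all tested genes lower and 10.4% higher. Together the 10 genes took 1.27%, 1.255% and 1.357% of all counts in cKO 1, 2 and 3 and 1.917%, 1.961% and 2.0% in control 1, 2 and 3. In bulk RNA, fewer cells with a transcript and less of it per cell cannot be told apart.

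**Figure D1:**
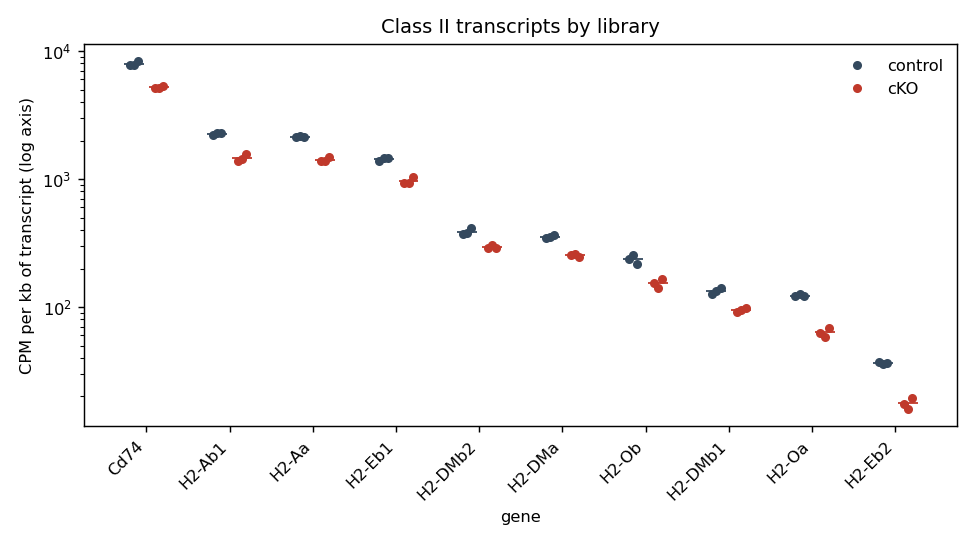
CPM per kb of transcript (log axis) of each of the 10 genes in the 3 control and 3 cKO libraries, with points for libraries and short lines for means. Every cKO point lies below every control point of its gene.

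The classical class II A molecule is made of the alpha chain H2-Aa (chr17:34282744-34287823, - strand) and the beta chain H2-Ab1 (chr17:34257689-34269419, + strand). H2-Aa stood at 1372, 1385 and 1489 CPM per kb of transcript in cKO 1, 2 and 3 and at 2119, 2179 and 2144 in control 1, 2 and 3. The groups were well apart, and the log2 fold change was -0.60 (SE 0.0403, adjusted p = 2.87e-06). H2-Ab1 stood at 1373, 1424 and 1560 CPM per kb in cKO 1, 2 and 3 and at 2212, 2283 and 2303 in control 1, 2 and 3, again without overlap. Its log2 fold change was -0.64 (SE 0.0479, adjusted p = 4.75e-06), close to that of its partner chain.

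H2-Eb1 (chr17:34305867-34316674, + strand) encodes the E beta chain, and H2-Eb2 (chr17:34325665-34341412, + strand) is a related E beta gene. C57BL/6 mice lack a working E alpha gene, so E beta has no usual partner there. H2-Eb1 measured 923.6, 929.2 and 1035 CPM per kb in cKO 1, 2 and 3 and 1380, 1450 and 1453 in control 1, 2 and 3, and fell by 0.57 on the log2 scale (SE 0.0490, adjusted p = 1.11e-05), just short of the 1.5-fold cutoff. H2-Eb2 had the lowest level of the 10 genes, with 17.59, 15.99 and 19.54 CPM per kb in the cKO libraries against 37.29, 36.16 and 36.74 in the control libraries. It had the most negative log2 fold change of the 10, -1.05 (SE 0.0724, adjusted p = 3.20e-06). The E alpha pseudogene H2-Ea-ps did not pass the filter, with 0, 2 and 0 counts in cKO and 10, 15 and 9 counts in control libraries. Its cKO counts were under the floor of 3 counts per library.

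Cd74, the invariant chain, lies outside the class II interval on another chromosome and had the highest level. It stood at 5154, 5140 and 5328 CPM per kb in cKO 1, 2 and 3 and at 7839, 7778 and 8307 in control 1, 2 and 3. The groups did not overlap and the log2 fold change was -0.61 (SE 0.0309, adjusted p = 7.81e-07), close to those of H2-Aa and H2-Ab1.

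The H2-DM editor pairs H2-DMa (chr17:34119541-34139101, + strand) with a beta chain from H2-DMb1 (chr17:34153072-34160230, + strand) or H2-DMb2 (chr17:34143307-34151555, + strand). H2-DMa measured 256.1, 260.7 and 247.7 CPM per kb in cKO 1, 2 and 3 and 345.3, 350.8 and 365.5 in control 1, 2 and 3. Its log2 fold change was -0.47 (SE 0.0473, adjusted p = 2.67e-05), with no overlap between the groups. The annotated span of H2-DMa overlaps that of Brd2 on the other strand, and whether the counting used strand is not given in the sources used here.

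H2-DMb1 measured 90.93, 94.08 and 97.87 CPM per kb in cKO 1, 2 and 3 and 125.6, 132.4 and 140.4 in control 1, 2 and 3. H2-DMb2 measured 288.9, 305.9 and 287.6 CPM per kb in cKO 1, 2 and 3 and 370.4, 378.4 and 415.9 in control 1, 2 and 3. Both were lower in every cKO library, with log2 fold changes of -0.49 (SE 0.0574, adjusted p = 6.90e-05) for H2-DMb1 and -0.40 (SE 0.0568, adjusted p = 0.000249) for H2-DMb2. The split between these paralogs is uncertain. Their transcripts were identical at 92.8% of 1231 aligned bases, and 179 windows of 100 bases were found in both, which is 13.7% of the windows of H2-DMb1 and 13.5% of those of H2-DMb2. No other member transcript shared a window of 100 bases with a transcript of another gene.

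H2-O, the inhibitor of H2-DM, is made of H2-Oa (chr17:34092340-34095234, + strand) and H2-Ob (chr17:34238903-34254414, + strand). H2-Oa measured 63.24, 58.81 and 68.51 CPM per kb in cKO 1, 2 and 3 and 121.8, 125.7 and 121.0 in control 1, 2 and 3. The control libraries differed little from each other, and the log2 fold change was -0.95 (SE 0.0638, adjusted p = 2.88e-06). H2-Ob measured 154.7, 140.1 and 165.5 CPM per kb in cKO 1, 2 and 3 and 236.7, 256.8 and 218.6 in control 1, 2 and 3. It fell by 0.63 on the log2 scale (SE 0.0744, adjusted p = 7.58e-05).

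**Figure D2:**
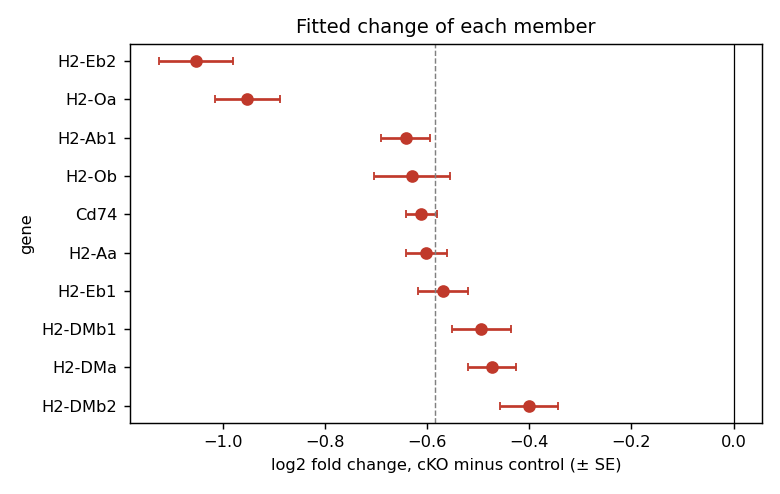
Log2 fold change of each gene (cKO minus control, x axis), with SE bars, from edgeR's quasi-likelihood fit; the dashed line marks 1.5-fold. H2-DMb2 at -0.40 moved least and H2-Eb2 at -1.05 moved most.

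In control libraries the order of mean levels per kb was Cd74 at 7975 ± 289, H2-Ab1 at 2266 ± 47.5, H2-Aa at 2147 ± 30.1 and H2-Eb1 at 1428 ± 41.3 CPM per kb (SD, n = 3 each). The editors followed, with H2-DMb2 at 388 ± 24.3, H2-DMa at 354 ± 10.4, H2-Ob at 237 ± 19.1, H2-DMb1 at 133 ± 7.39 and H2-Oa at 123 ± 2.52 CPM per kb, and H2-Eb2 came last at 36.7 ± 0.567 (SD, n = 3 each). H2-DMb1 and H2-Oa overlapped among control libraries, and no other neighbours in that order did. In cKO libraries H2-Ab1 and H2-Aa overlapped, and H2-DMb1 and H2-Oa did not.

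Ratios between chains within a library do not depend on its depth. With 3 libraries against 3, the smallest p that exact permutation allows is 0.1, so none of the 11 ratios could pass 0.05, and after adjustment over the 11 the lowest value was 0.275. In 4 of the 11 ratios the groups did not overlap. Of all tested genes taken singly, 58.7% did not overlap in either direction. No such share was computed for ratios of other gene pairs, so the count does not set these chains apart. Two-sided exact permutation p-values are given throughout.

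The A chains stayed in close proportion. H2-Aa to H2-Ab1 was 0.9994, 0.9725 and 0.9544 in cKO 1, 2 and 3 and 0.9578, 0.9545 and 0.9311 in control 1, 2 and 3, with overlap (exact p = 0.3). H2-Ab1 to H2-Eb1, the A to E beta ratio, was 1.486, 1.533 and 1.507 in cKO and 1.603, 1.574 and 1.585 in control libraries. All cKO values were below all control values, with a cKO to control fold of only 0.950 (exact p = 0.1). H2-Aa to H2-Eb1 overlapped (0.978-fold, exact p = 0.3). Cd74 to the sum of H2-Aa, H2-Ab1 and H2-Eb1 was 1.36 ± 0.0516 in cKO and 1.36 ± 0.0466 in control libraries (SD, n = 3 each; exact p = 0.8).

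H2-Eb1 to H2-Eb2 was 52.51, 58.09 and 52.98 in cKO and 37.0, 40.1 and 39.54 in control libraries. The ratio was 1.40-fold higher in cKO without overlap (exact p = 0.1).

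Of the DM to O ratios, the alpha chain ratio H2-DMa to H2-Oa was 4.049, 4.433 and 3.615 in cKO 1, 2 and 3 and 2.835, 2.79 and 3.02 in control 1, 2 and 3. It was 1.40-fold higher in cKO, again without overlap (exact p = 0.1). The beta chain ratio, H2-DMb1 plus H2-DMb2 to H2-Ob, was 2.455, 2.854 and 2.33 in cKO and 2.095, 1.989 and 2.544 in control libraries. Control 3 lay above cKO 1 and cKO 3, so the groups overlapped (1.16-fold, exact p = 0.3). H2-Oa to H2-Ob, the 2 chains of the inhibitor, was 0.4088, 0.4197 and 0.4141 in cKO and 0.5145, 0.4895 and 0.5535 in control libraries, without overlap (0.799-fold, exact p = 0.1).

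Within H2-DM, H2-DMa to the summed beta chains was 0.656 ± 0.0162 in cKO and 0.680 ± 0.0204 in control libraries, with overlap (SD, n = 3 each; exact p = 0.2). H2-DMb1 to H2-DMb2 was 0.321 ± 0.0172 and 0.342 ± 0.00672, with overlap (SD, n = 3 each; exact p = 0.3). H2-DMa to H2-Aa, the editor set against its substrate, was 0.180 ± 0.0122 in cKO and 0.165 ± 0.00500 in control libraries, with overlap (SD, n = 3 each; exact p = 0.2).

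**Figure D3:**
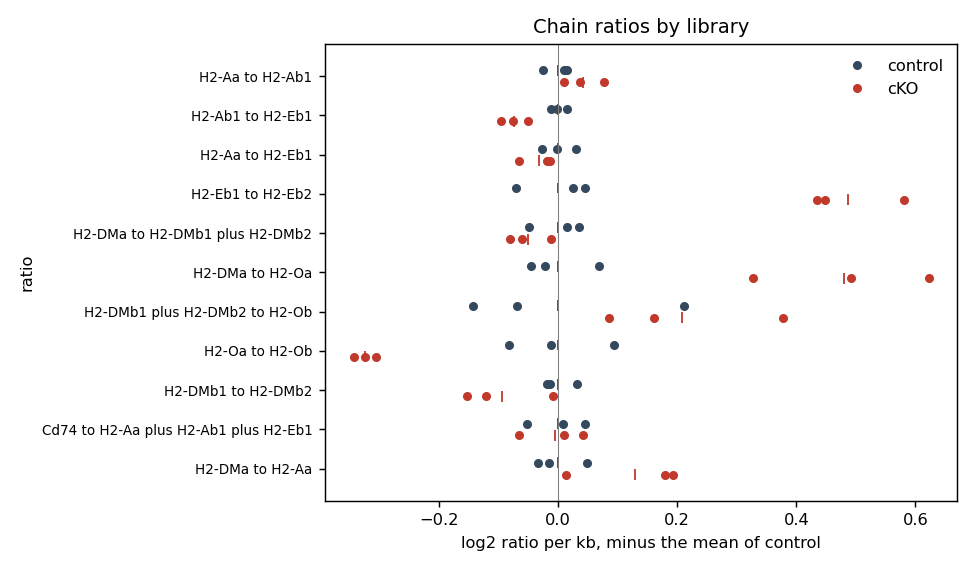
Log2 of each chain ratio per kb, minus the control mean of that ratio (x axis), with 1 point per library and a short line for each group mean. The groups are apart for H2-Ab1 to H2-Eb1, H2-Eb1 to H2-Eb2, H2-DMa to H2-Oa and H2-Oa to H2-Ob.

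Cd74 was the 1 gene of the 10 with 2 transcripts in the transcript table: the shorter NM_010545, which encodes the p31 form, and the longer NM_001042605, which encodes p41, a form with an added thyroglobulin-type domain. NM_010545 had 262571, 261101 and 255502 counts in cKO 1, 2 and 3 and 406355, 352715 and 391921 in control 1, 2 and 3. Its log2 fold change was -0.64 (SE 0.0328, adjusted p = 0.000653). NM_001042605 had 27303, 25308 and 24335 counts in cKO and 30722, 24771 and 30828 in control libraries. Scaled for depth these were 601.7, 562.5 and 573.7 CPM in cKO and 680.8, 630.2 and 748.7 CPM in control libraries, where the groups did not overlap.

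The fall of NM_001042605 barely passed the threshold (log2 fold change -0.25, SE 0.0689, adjusted p = 0.0496). Of the 18040 tested transcripts 12.7% were lower and 12.4% higher by that rule. The call was lost when any of 5 of the 6 libraries was left out, with adjusted p-values of 0.0944, 0.149 and 0.132 without cKO 1, 2 and 3 and 0.12 and 0.115 without control 1 and 3. It held only without control 2 (adjusted p = 0.03).

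The share of NM_001042605 in Cd74 per kb was 8.28%, 7.76% and 7.64% in cKO 1, 2 and 3 and 6.16%, 5.75% and 6.39% in control 1, 2 and 3. Every cKO share was above every control share, a difference of 1.79 percentage points (exact p = 0.1, the lowest possible). edgeR's diffSpliceDGE, which compares transcripts of a gene over all genes, made no call for this transcript (log2 change in use 0.25, adjusted p = 1). That test called 0.288% of 7646 transcripts with a lower and 0.327% with a higher share, and in simulated data it missed nearly all changes put in, so its result does not show equal use. StringTie divides reads between these transcripts by estimate.

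**Figure D4:**
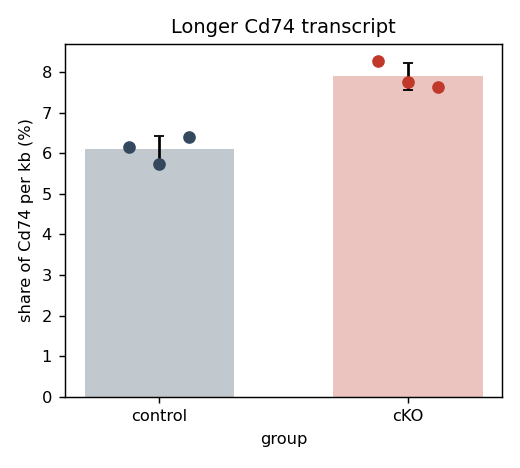
Share of the longer Cd74 transcript, NM_001042605, in Cd74 per kb (%), with bars for group means, SD error bars and 1 point per library. The cKO points lie between 7.64% and 8.28% and the control points between 5.75% and 6.39%.

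Between the members in the class II interval, 5 other genes were tested, a set chosen by position after the data were seen. Of these 1 was lower, 1 higher and 3 were not called, near the shares over all tested genes (24.5% lower, 24.1% higher). Tap1, which carries peptides to class I, rose (log2 fold change 0.39, SE 0.0926, adjusted p = 0.00583), and the immunoproteasome subunit Psmb9 fell by 0.262 on the log2 scale (SE 0.0791, adjusted p = 0.0193). The median log2 fold change of the 5 genes was 0.0176, against -0.602 for the 9 members in the interval and -0.00402 over all tested genes, and the difference between the sets was not tested.

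**Figure D5:**
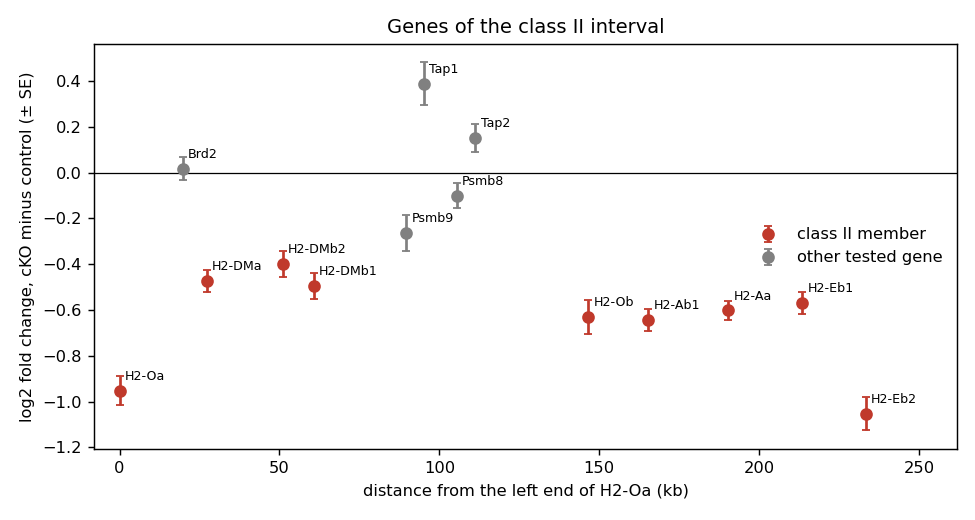
Log2 fold change (cKO minus control, y axis, with SE bars) against distance from the left end of H2-Oa in kb. The 9 class II genes lie between -1.05 and -0.40, and Brd2, Psmb9, Tap1, Psmb8 and Tap2 between -0.262 and 0.388.

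Of 8 class II regulators, 1 was lower, 2 were higher and 5 were not called, where 24.5% of all tested genes were lower and 24.1% higher, so the count does not set the regulators apart. Ciita, the transactivator, had 21412, 19556 and 21197 counts in cKO and 19117, 18835 and 17281 counts in control libraries (log2 fold change 0.09, SE 0.0690, adjusted p = 0.321). Rfxank, a subunit of the RFX complex that binds the X box, fell by 0.27 on the log2 scale (adjusted p = 0.0110). Nfyb, a subunit of the Y box factor NF-Y, rose by 0.42 (adjusted p = 0.00152), and Creb1 rose by 0.59 (adjusted p = 2.34e-05).

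Of 8 genes for class II antigen processing, 5 were lower, 1 was higher and 2 were not called, beside 24.5% lower and 24.1% higher over all tested genes. The endosomal proteases Lgmn and Ctsd fell by 0.83 (adjusted p = 1.29e-05) and 0.73 (adjusted p = 6.36e-06) on the log2 scale. Ctsh fell by 0.43, Ctsb fell by 0.35 and Ifi30, a thiol reductase that opens antigen disulfides, fell by 0.264, while Ctsz rose by 0.19. Ctss, a protease that trims the invariant chain, had a log2 fold change of -0.11 (adjusted p = 0.138). The ubiquitin ligases March1 and March8, which remove class II from the surface, were listed under 4 symbols that matched no row, because the table gives such symbols as dates, and are not reported. Of the 3 genes for class II surface turnover that matched, Sppl2a, the protease that clears the membrane stub of Cd74, fell by 0.22 (adjusted p = 0.0204) and 2 were not called, close to the 24.5% of all tested genes that were lower.

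Of 10 class I genes, 2 were lower (H2-T23 and Psmb9), 2 higher (B2m and Tap1) and 6 not called, again no more than the shares over all tested genes. The list's median log2 fold change was 0.0867. B2m, the class I light chain, passed at an adjusted p of 0.0499. The class I heavy chains H2-K1 and H2-D1 had log2 fold changes of 0.08 (adjusted p = 0.366) and 0.11 (adjusted p = 0.240).

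Plasma cell markers were read against the same shares, 24.5% lower and 24.1% higher. Of 6 tested plasma cell markers 4 were lower (Jchain, Xbp1, Prdm1 and Mzb1) and 2 were higher (Sdc1 and Irf4), with a summed level of 959.9 to 1129 CPM against 1326 to 1387 CPM. The list thus went both ways, with log2 fold changes from -4.00 for Jchain to 1.60 for Sdc1. The part of these differences in the class II result was not tested.

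The counts for markers of other cell types also stand beside 24.5% lower and 24.1% higher over all tested genes. Dendritic cell markers summed to 127.9 to 135.3 CPM in cKO and 184 to 225.8 CPM in control libraries, with 2 of 5 tested genes lower and 1 higher. Ccr7, a chemokine receptor that B cells also express, carried most of the sum and fell by 0.89 on the log2 scale (adjusted p = 7.23e-05). Flt3 fell by 0.70 (adjusted p = 0.0143) and Zbtb46 rose by 0.83 (adjusted p = 0.000471). Siglech was at 0 in every library and Itgax at 4 to 26 counts. Macrophage markers summed to 4.08 to 6.06 CPM in cKO and 1.31 to 2.45 CPM in control libraries, with 1 of 2 tested genes higher. That gene, Adgre1, carried most of the sum and rose from 1.18 to 4.62 CPM (log2 fold change 1.96, adjusted p = 0.00203), while Cd14 and Mertk were at 0 in all libraries. None of the T cell markers passed the filter. Fibroblast markers of the feeder layer summed to 99.4 to 113 CPM in cKO and 57.8 to 118 CPM in control libraries, where Col1a1 was the most abundant. Of 9 tested, 3 were higher in cKO and none was lower, where 24.1% of all tested genes were higher: Fn1 (log2 fold change 1.07, adjusted p = 0.000651), Col5a1 (1.61, adjusted p = 0.000185) and Fbn1, with 207, 139 and 172 counts in cKO and 0 in each control library. The part of these cell type markers in the class II result was not tested.

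Within the 3 libraries with Xist all 10 genes were lower in cKO, with log2 differences from -0.292 for H2-DMb2 to -1.2 for H2-Eb2, and within the 3 without Xist they ran from -0.451 for H2-Ob to -0.987 for H2-Eb2. Each of these subsets had 1 library on one side, so no test was made.

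By the distance of centred log2 CPM over the 6 libraries, the 5 tested genes nearest to the mean profile of the 10, of 8504 compared, were Arl6ip4, Cyb561d1, Efcab14, Myo1e and Bin2. Their log2 fold changes were -0.65, -0.63, -0.59, -0.68 and -0.62, and their distances 0.0493 to 0.0785. Among the members H2-Aa was nearest to the mean profile at 0.0612 and H2-Eb2 farthest at 0.527.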

How the data were processed

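After trimming, the authors used HISAT2 for alignment and StringTie for quantification, and deposited estimated counts, not normalized, in a gene table and a RefSeq transcript table. The build named in the submitters' processing notes is mm10, and tool versions are not given in the sources used here. Estimated counts were whole already, so rounding changed nothing. Genes were kept by filterByExpr (minimum count 10), scaled by TMM and tested in edgeR 4.0.16 (R 4.3.3) with glmQLFit and glmQLFTest, cKO against control without covariates, and Benjamini-Hochberg adjustment over all tested genes, or over all tested transcripts, at 0.05. SE is the absolute log2 fold change over the square root of F. Alternatives used DESeq2 1.42.0 and other filters, scalings and covariates. The study's own fold change cutoff of 1.5 is given as a second count.

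Levels per kb used GENCODE M21 lengths of the matched RefSeq transcripts and TMM-scaled totals. Ratios and shares were tested with scipy 1.17.1 by two-sided exact permutation, and H2-DMb1 and H2-DMb2 were aligned with biopython 1.88. NCBI's table of GRCm38.p6 matched 34674 of 36026 transcripts to genes. All 10 members are named; from the other lists, genes past 0.05 and Ciita were named by rule, and Ctss, H2-K1, H2-D1, Col1a1 and markers at or near 0 were named after their values were seen. The lists of general B cell and germinal center markers are not reported here. The members and lists were chosen with earlier results of these data known. The labels' general protocol gives a longer culture than the titles. Where nothing says that mice were handled independently, p-values measure the spread between these libraries.

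Both fits were then tested on simulated data under 3 spreads, added one after another when the first did not meet the limits set. Those limits, over 80% of changed genes and over 70% of changed transcripts recovered with fewer than 20 unchanged ones called, were met under 0 of the 3 spreads in either table. The changes that were called had the right direction and median size, and misses were fewer among well counted genes. No spread was chosen over the others. The step now stops only for wrong directions or sizes, a condition set after those results. A lack of a call in the transcript fit, and above all in diffSpliceDGE, is therefore weak evidence.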

Additional observations from a re-analysis of the deposited data

How the results depend on the processing

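All 10 genes stayed lower at an adjusted p under 0.05 under DESeq2, 2 other scalings (DESeq2's size factors, totals alone), 2 other filters (none, or 10 counts in each library), Xist as a covariate, removal of immunoglobulin genes, the replicate block, and removal of any 1 library (10 to 10 genes). With the 1.5-fold cutoff the count was 6, and it ranged from 5 to 7 with a library left out. The ratio of H2-DMa to the H2-DM beta chains changed sign, with a log2 difference of 0.0197 with H2-DMb1 alone in place of the sum, against -0.0511, and the cause was not tested. Cd74 to the A and E chains, at -0.00418, also changed sign, to 0.0263 without cKO 3 and 0.0183 without control 3, both within the replicate SD. For the Cd74 transcript NM_001042605 the log2 fold change was -0.243 with the replicate block (adjusted p = 0.0812) and ranged from -0.305 to -0.175 with a library left out, where the call was lost in 5 of 6 cases. Same-numbered libraries correlated at 0.00851, 0.0839 and 0.133 in their deviations, so the numbers were not taken to pair the mice, and apart from that transcript the block changed no call of the 10 member genes or of Ciita. Over all genes it gave 3165 lower and 3069 higher calls, against 3264 and 3204, and it was not read gene by gene for the class I, interval and marker genes. The diffSpliceDGE test, the share on undivided counts (2.02 percentage points) and the settings applied to Eif3e and the other lists were chosen after seeing the data. In those settings 6 to 8 genes of the regulator, processing and turnover lists were lower, against 7 in the main fit, and 3 were higher throughout. Eif3e stayed lower, with log2 fold changes from -1.43 to -1.32. Depth did not limit the members, the lowest of which had 2441 counts, while 3 libraries a group limit every ratio to an exact p of 0.1 or more.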
